A study of Sus scrofa with 20 samples.

Results

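Synaptic vesicles are small organelles at nerve endings that store transmitter and release it by fusing with the plasma membrane. Fusion is driven by SNARE proteins on the vesicle and on the target membrane, is triggered by calcium through synaptotagmins, and takes place at a protein-rich patch called the active zone. Afterwards the SNARE complexes are taken apart by NSF and its adaptors, and the vesicle membrane is recovered by endocytosis. The 38 genes described here encode this machinery and were found on the array by their gene symbols. The array annotation named 35 of them, with 71 probe sets, among 13588 named genes and 47845 probe sets in all. SYP, UNC13A and RAB3A were not named by it and were not analysed here.

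Expression was compared in amygdala tissue, part of the brain circuit for threat and emotion, between 10 high-reactive (HR) and 10 low-reactive (LR) pigs of the German Landrace breed. All animals were labelled as adult, although the study's methods give slaughter at a few months of age. The labels name no treatment, and each animal contributed 1 array to the Affymetrix porcine Snowball platform. The study assigned animals to HR or LR by early-life backtests, in which a piglet is briefly held on its back and its struggling is scored, together with haplotypes in a coping-associated region. Behavior and haplotype therefore cannot be told apart in these groups. Values are normalised log2 signal of the whole excised tissue. In such tissue, fewer cells of a type and less RNA per cell cannot be told apart.

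Of the 35 genes on the table, 34 had a mean signal at or above the median of all probe sets (5.18 on the log2 scale) and were tested. SYT4 was below it. For genes with more than 1 probe set, the brightest on average represented the gene. Differences are HR minus LR on the log2 scale, with a 2-sided p from limma and an adjusted p over all 23860 tested probe sets by the Benjamini-Hochberg method.

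LR replicate 3 stood apart from the other arrays. It had a median correlation of 0.876 with them, against 0.958 to 0.981 for the remaining ones. It held the lowest value of all 20 animals for 17 members of the vesicle machinery and the highest for 11, so 28 of 35 had this animal at one end. The same share over all genes was not computed, so this count cannot be read as particular to the members. Because this array stood apart, the main counts are also given without LR replicate 3. Neuron markers ranged in signal from ELAVL4, at a mean of 5.09 in HR and 5.46 in LR, to STMN2, at 11.97 and 12.20. On the table, 10 of 12 neuron markers were named (all but ENO2 and TUBB3). Of these 10, 1 had a higher and 5 a lower mean in HR at an unadjusted p under 0.05. The summed linear signal of the neuron markers ran from 16787 to 20859 in HR (median 18889) and from 18931 to 25937 in LR (median 19727), with LR replicate 3 at the top. The 8 astrocyte markers summed to between 18332 and 22357 in HR and between 20164 and 32493 in LR, again with LR replicate 3 highest. Singly, 4 of these 8 had a higher mean in HR and 4 a lower one. LR replicate 3 was instead the lowest of all animals for the summed endothelial (785.6) and blood (212.8) markers. It lay inside the range of the other animals for oligodendrocyte, oligodendrocyte precursor, microglia and choroid plexus markers. The part of the cell type markers in the differences below was not tested.

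No member passed an adjusted p of 0.05, the lowest being 0.157. The same test called 2 of 23860 probe sets (0.00838%). At an unadjusted p under 0.05, 9 of 34 members were higher in HR and 5 were lower. Among all 10255 tested genes the same held for 14.2% higher and 15.4% lower, so 14 members (41.2%) met it against 29.6% of genes. The median difference was 0.06 over the members and 0.05 over all genes. Without LR replicate 3, 7 members were higher and 3 lower, against 9.04% and 11.4% of genes, and the median difference was 0.02 over the members and 0.02 over all genes. Signs were mixed, with 18 of the 34 members above 0 and 16 below.

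**Figure D1:**
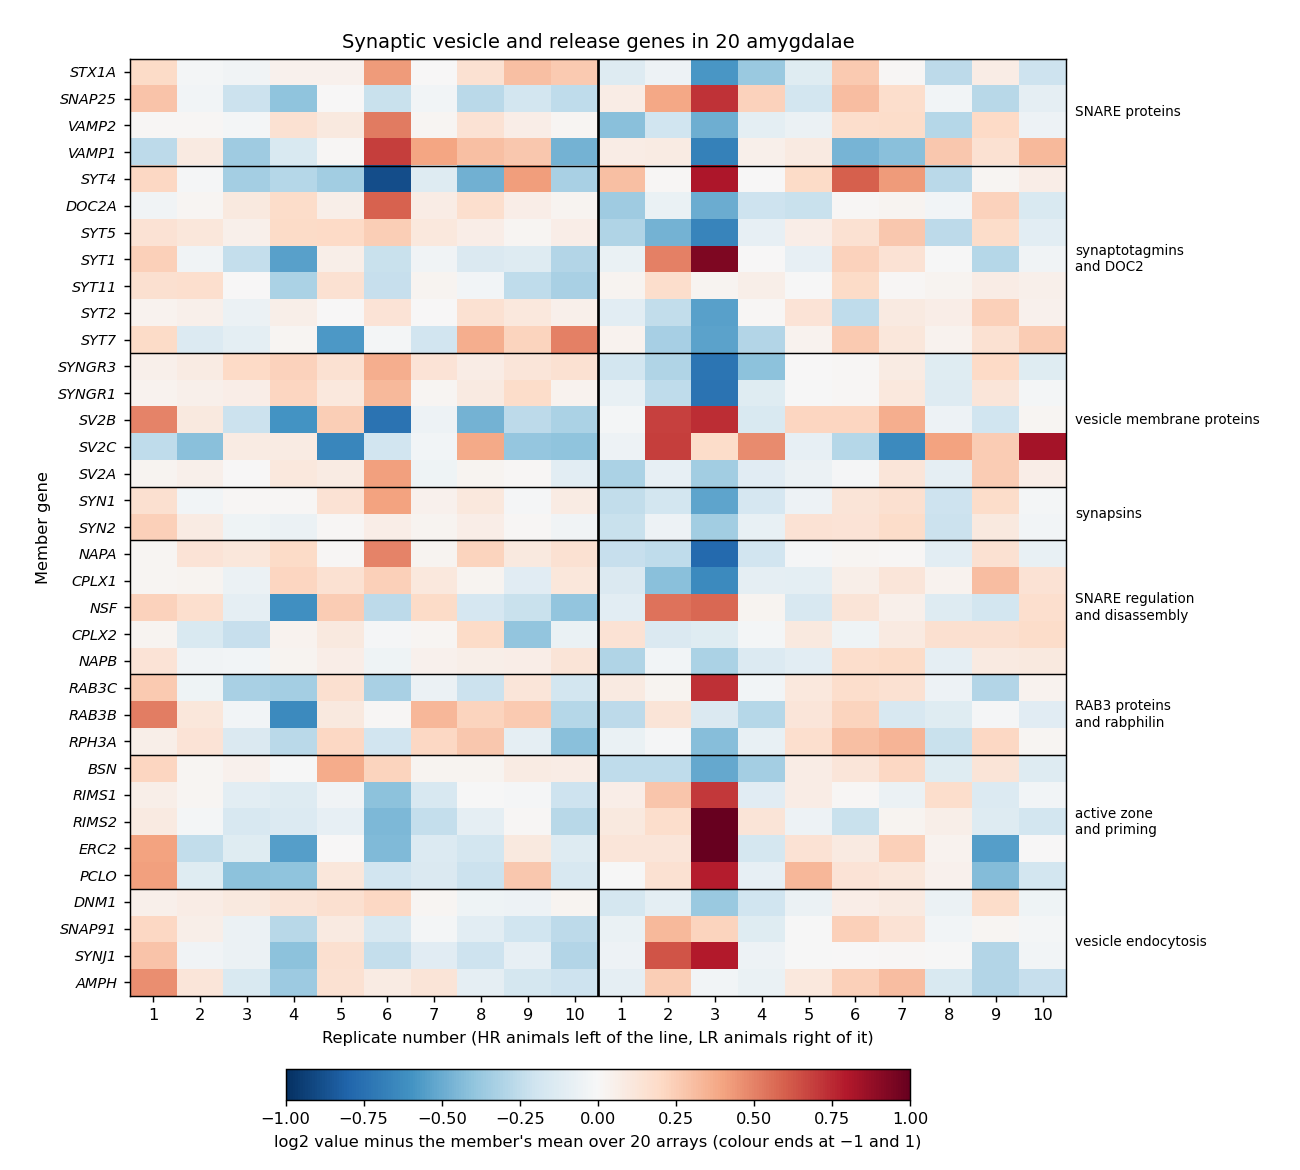
Each row is 1 member gene and each column 1 animal, HR left of the line and LR right of it; colour gives the log2 value minus the member's mean over 20 arrays, with the colour scale ending at −1 and 1. LR replicate 3 stands out down its column, blue in 17 members where it was lowest of all animals and red in 11 where it was highest.

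The SNARE proteins form the core of the fusion machine. STX1A (syntaxin 1A) and SNAP25 sit on the plasma membrane, and VAMP2 and VAMP1 (synaptobrevins) sit on the vesicle. STX1A signal ran from 9.10 to 9.56 in HR (median 9.24) and from 8.55 to 9.40 in LR (median 9.01). All 10 HR animals lay above the LR median, although the groups overlapped, and LR replicate 3 was the lowest animal. The difference was 0.27 ± 0.09 (SE), with p = 0.00604 and an adjusted p of 0.157, and its second probe set gave 0.28. VAMP2 went the same way, with 10.65 to 11.19 in HR (median 10.71) and 10.18 to 10.87 in LR (median 10.59). Here too every HR animal was above the LR median, and HR replicate 6 stood above all others. Its difference was 0.20 ± 0.09 (SE; p = 0.0373, adjusted p = 0.176). It was 0.16 without LR replicate 3 (p = 0.072) and 0.16 without HR replicate 6 (p = 0.082).

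SNAP25, the partner of both in the same complex, had the opposite sign. It ran from 11.20 to 11.88 in HR (median 11.40) and from 11.32 to 12.32 in LR (median 11.73). The ranges overlapped, with 9 of 10 HR animals below the LR median and LR replicate 3 the highest of all. The difference was -0.26 ± 0.11 (SE; p = 0.0232, adjusted p = 0.165), and a dimmer second probe set gave -0.47. VAMP1, the synaptobrevin that predominates in spinal cord and brainstem of rodents, averaged 8.48 ± 0.37 in HR and 8.38 ± 0.34 in LR (SD, n = 10 each). That difference of 0.10 had p = 0.489 and an interval from -0.20 to 0.41.

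Synaptotagmins are membrane proteins, most of which bind calcium and phospholipid, and SYT1 is the fast calcium sensor for release in forebrain neurons of mice. SYT1 ran from 11.05 to 11.83 in HR (median 11.46) and from 11.31 to 12.53 in LR (median 11.60). The groups overlapped, with 8 HR animals below the LR median and LR replicate 3 the highest of all. Its difference was -0.27 ± 0.12 (SE; p = 0.0376, adjusted p = 0.177) and was -0.18 without LR replicate 3 (p = 0.071). A second probe set gave -0.27. SYT5, another vesicle synaptotagmin, spanned 9.06 to 9.29 in HR (median 9.16) and 8.39 to 9.32 in LR (median 8.95). HR animals were tightly grouped, with an SD of 0.08 against 0.30 in LR, and all of them exceeded the LR median. The difference was 0.24 ± 0.10 (SE; p = 0.021, adjusted p = 0.164).

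DOC2A, a soluble calcium sensor related to the synaptotagmins, ran from 9.05 to 9.67 in HR (median 9.15) and from 8.58 to 9.31 in LR (median 8.97). Its highest animal was HR replicate 6 and its lowest LR replicate 3. The difference was 0.25 ± 0.09 (SE; p = 0.00834, adjusted p = 0.157), but its second, dimmer probe set gave -0.19 (p = 0.122). The direction for DOC2A thus depended on the probe set. SYT11, which does not bind calcium and takes part in membrane retrieval, differed by -0.13 (p = 0.0928), and by -0.27 (p = 0.0282) over its dimmer probe set. SYT2, the fast sensor of hindbrain synapses in mice, differed by 0.11 (p = 0.185), and SYT7, a slow, high-affinity calcium sensor, by 0.05 (p = 0.663). SYT4 lay under the filter, with 4.13 to 5.42 in HR (median 4.70) and 4.74 to 5.82 in LR (median 5.14). In the fit without a filter its difference was -0.43 (p = 0.00649 unadjusted), at a signal near that of the dimmer part of the array.

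**Figure D2:**
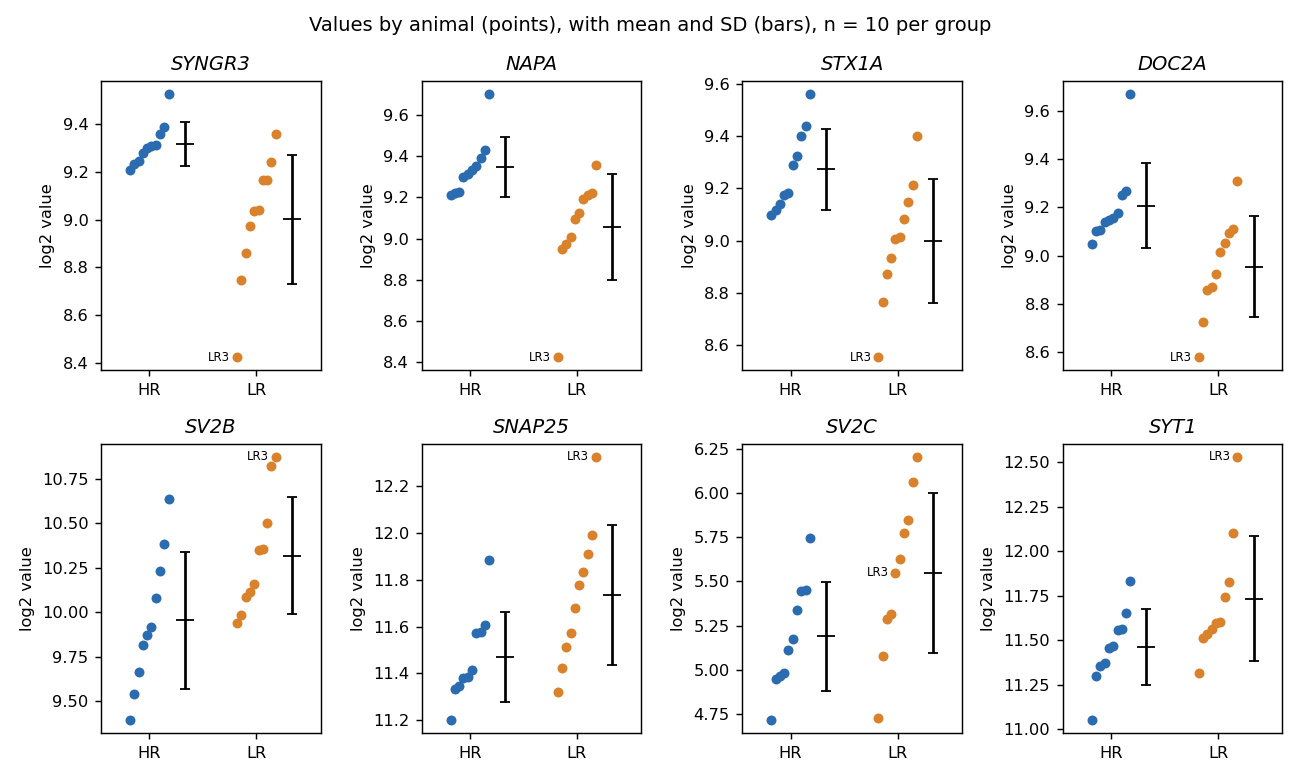
Log2 signal (y axis) by animal for the 4 members with the smallest p among those higher in HR (top row) and the 4 with the largest size of difference among the 5 lower in HR at an unadjusted p under 0.05 (bottom row); points are animals, HR left and LR right, bars are mean and SD with n = 10 per group. All 10 HR points of the top row lie above the LR median, and LR replicate 3 is the lowest LR point there and the highest for SV2B, SNAP25 and SYT1, but not for SV2C.

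Proteins that span the vesicle membrane gave the largest differences in both directions among the 34 tested members. SYNGR3 and SYNGR1 are synaptogyrins, abundant vesicle proteins with several membrane spans. SYNGR3 ran from 9.21 to 9.52 in HR (median 9.30) and from 8.43 to 9.36 in LR (median 9.04). Only the highest LR animals reached into the HR range, and all HR animals were above the LR median. With 0.31 ± 0.09 (SE; p = 0.00216, adjusted p = 0.157) it had the largest positive difference of the 34 members, and without LR replicate 3 it was 0.25 (p = 0.0019). SYNGR1 ran from 10.18 to 10.48 in HR (median 10.23) and from 9.42 to 10.28 in LR (median 10.11). Its difference was 0.22 ± 0.09 (SE; p = 0.0167, adjusted p = 0.16), again with every HR animal above the LR median, and its second probe set gave 0.14.

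The SV2 proteins are transporter-like glycoproteins of the vesicle that modulate release, and their paralogs did not share a sign. SV2B ran from 9.40 to 10.64 in HR (median 9.90) and from 9.94 to 10.87 in LR (median 10.25). Of the HR animals 8 were below the LR median, and the ranges overlapped. The difference was -0.36 ± 0.15 (SE; p = 0.0227, adjusted p = 0.164), and its second probe set gave -0.51. SV2C, which in rodents is most abundant in basal ganglia, ran from 4.72 to 5.75 in HR (median 5.14) and from 4.73 to 6.20 in LR (median 5.59), close to the filter. Its difference of -0.36 ± 0.16 (SE; p = 0.0352, adjusted p = 0.176) was the same without LR replicate 3, which was not among the extremes for this gene. SV2A, the most widely expressed paralog, differed by 0.11 (p = 0.154).

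Synapsins tether vesicles to one another and to the cytoskeleton in the reserve pool. SYN1 ran from 10.72 to 11.15 in HR (median 10.82) and from 10.22 to 10.94 in LR (median 10.64). All HR animals were above the LR median, HR replicate 6 was highest and LR replicate 3 lowest. Its difference was 0.19 ± 0.08 (SE; p = 0.0361, adjusted p = 0.176) and 0.14 without LR replicate 3 (p = 0.068). SYN2 differed by 0.08 (p = 0.296), and its 4 probe sets disagreed in sign, between -0.01 and 0.14.

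NSF is the ATPase that separates spent SNARE complexes, NAPA and NAPB are the SNAP adaptors that bring it to them, and complexins clamp and activate the complex. NAPA ran from 9.21 to 9.70 in HR (median 9.32) and from 8.42 to 9.36 in LR (median 9.11). Every HR animal was above the LR median, HR replicate 6 was highest and LR replicate 3 lowest, each set off from its group. The difference was 0.29 ± 0.09 (SE; p = 0.00456, adjusted p = 0.157) and 0.22 without LR replicate 3 (p = 0.0038). Its brain-enriched paralog NAPB differed by 0.08 (p = 0.233) and NSF itself by -0.18 (p = 0.15), or -0.17 (p = 0.0497) over its dimmer probe set. CPLX1 differed by 0.15 (p = 0.139) and CPLX2 by -0.10 (p = 0.18), and the third and dimmest tested probe set of CPLX1 gave 0.26 (p = 0.0166). Of the 5 genes in this group, NAPA alone had an unadjusted p under 0.05 on its brightest probe set.

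RAB3 proteins are vesicle GTPases, and RPH3A (rabphilin) binds them. None of the 3 tested here had an unadjusted p under 0.05. RAB3C differed by -0.19 (p = 0.0848), RAB3B by 0.12 (p = 0.28) and RPH3A by -0.04 (p = 0.67). The second probe set of RPH3A gave 0.17, so its probe sets disagreed in sign. The intervals for RAB3C and RAB3B ran from -0.41 to 0.03 and from -0.11 to 0.36, which leaves room for differences as large as those of the members above.

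The active zone holds the scaffolds that dock and prime vesicles. BSN (bassoon) is a giant scaffold protein and ran from 9.52 to 9.89 in HR (median 9.58) and from 9.01 to 9.73 in LR (median 9.39). All HR animals exceeded the LR median, and its difference was 0.22 ± 0.09 (SE; p = 0.0195, adjusted p = 0.163). Its 4 probe sets all had the same sign, with 0.15 to 0.22. PCLO (piccolo), its homolog, had the other sign at -0.17 (p = 0.184), and -0.37 (p = 0.063) over its dimmer probe set. RIMS1, a RAB3-binding organizer of the active zone, ran from 8.30 to 8.77 in HR (median 8.64) and from 8.57 to 9.42 in LR (median 8.74). Of the HR animals 9 were below the LR median, and the difference was -0.19 ± 0.09 (SE; p = 0.0423, adjusted p = 0.181). A second RIMS1 probe set gave -0.28 (p = 0.0365), and -0.18 without LR replicate 3.

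RIMS2 and ERC2 pointed the same way as RIMS1, with -0.27 (p = 0.0816) and -0.26 (p = 0.109). The second probe set of RIMS2 gave -0.04 (p = 0.694). The differences on the brightest probe sets rested in good part on 1 animal, since without LR replicate 3 RIMS2 was -0.12, ERC2 -0.13 and RIMS1 -0.13. RIMS2 signal lay between 6.80 and 7.34 in all HR animals, against 8.69 in LR replicate 3. Of the 5 active zone genes, 4 had a lower mean in HR, with a median difference of -0.19, and -0.12 without LR replicate 3. With array background as a covariate, a fit described further on, 3 of the 5 were above 0 and 2 below, with a median of 0.01.

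Vesicle recovery is carried out by DNM1 (dynamin 1), which severs the neck of the forming vesicle, SYNJ1 (synaptojanin 1), which strips its coat, and the adaptors AMPH (amphiphysin) and SNAP91 (AP180). None of the 4 had an unadjusted p under 0.05. DNM1 came closest, at a mean of 11.89 ± 0.08 in HR and 11.75 ± 0.16 in LR (SD, n = 10 each). All 10 HR animals were above the LR median, and the difference was 0.13 ± 0.07 (SE; p = 0.0521, adjusted p = 0.193). SNAP91 differed by -0.14 (p = 0.0666) over its brightest probe set and by -0.25 (p = 0.0141) over the dimmest of its 3. SYNJ1 differed by -0.20 (p = 0.106), or -0.33 (p = 0.0911) over its dimmer probe set, and AMPH by -0.01 (p = 0.933).

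**Figure D3:**
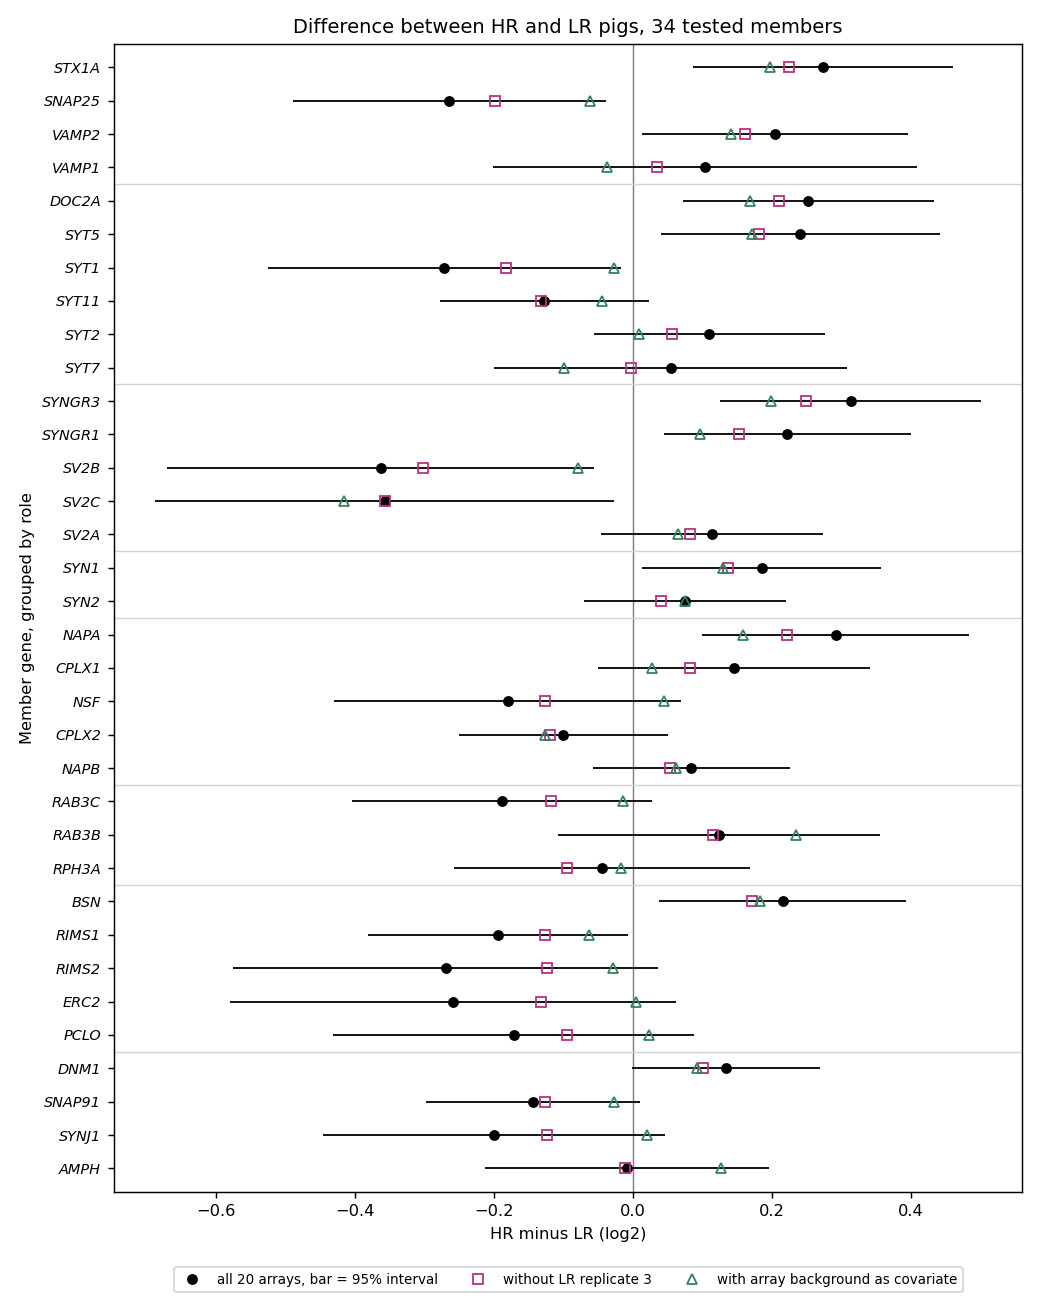
HR minus LR on the log2 scale (x axis) for the 34 tested members, grouped by role from SNARE proteins at the top to endocytosis at the bottom; filled points with bars are all 20 arrays with 95% interval, squares leave out LR replicate 3 and triangles hold array background constant. SNAP25, SYT1 and SV2B move close to 0 with the background held constant, while SV2C, STX1A and SYNGR3 stay at -0.42, 0.20 and 0.20.

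When each of the 20 animals was left out in turn, 9 of the 14 members with an unadjusted p under 0.05 stayed under it in every fit. The other 5, VAMP2, SYT1, SV2C, SYN1 and RIMS1, reached 0.05 or more in 7 to 9 of the 20 fits. All 14 had been picked by p in these same arrays, so those of smaller p were likely to stay under 0.05 from the start. The share of all genes that stayed under it was not computed.

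Spread between animals also varied. The SD was larger in LR than in HR for 25 of 35 members, with a median SD of 0.17 in HR and 0.25 in LR. Without LR replicate 3 the LR median was 0.19 and the LR SD was larger for 17 members. The wider LR spread thus came in part from that animal. In HR, replicate 6 was the highest of all 20 animals for 10 members and the lowest for 4, and replicate 4 was the lowest for 8. For these counts of spread and of extremes, the shares over all genes were not computed. Across members, 11 had all 10 HR animals above the LR median, namely the 9 higher in HR at an unadjusted p under 0.05, NAPB and DNM1. They made up 32.4% of the 34 tested members, against 6.37% of all tested genes. These 11 are not independent of one another, and the contrast with all genes was not tested. At a looser threshold, another 9 tested members (26.5%) had 8 or more HR animals below the LR median, against 18.6% of genes. The most HR animals below it for any tested member was 9, so the counts for above and below are not alike.

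The arrays carry antigenomic probe sets, which match no genome and report background signal. Their mean, taken here after normalization, was 4.21 ± 0.13 in HR and 4.08 ± 0.15 in LR (SD, n = 10 each), with LR replicate 3 lowest at 3.71. Of the 18 members higher in HR, 17 had a positive correlation with it over the 20 arrays, and of the 16 lower in HR, 15 had a negative one. The sign of the correlation thus matched that of the difference for 94.1% of members and 93.4% of all tested genes. An absolute r over 0.5 was found for 21 of 34 members (61.8%) and for 67.7% of all tested genes.

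At one end was SYT1, with Pearson's r = -0.916 and Spearman's rho = -0.86 (permutation p = 1e-05 for both, the smallest possible, with adjusted p = 5.67e-05 and 8.5e-05 over 34 members). It was -0.897 within HR, -0.914 within LR, and -0.809 after HR replicate 4 and LR replicate 3, whose background lay farthest from the median, were removed. At the other end was SYNGR1, with r = 0.773 and rho = 0.499 (permutation p = 0.00061 and 0.026, adjusted p = 0.00184 and 0.052). For this gene r was 0.576 within HR and 0.808 within LR. It was 0.459 without the same 2 arrays, and 0.176 within LR once replicate 3 was left out, so its relation in LR rested on that animal. This asymmetry ran through the list. An r over 0.5 was found for 8 members and an r under -0.5 for 13, while without the 2 arrays farthest from the median these counts were 0 and 12. Shares of all genes by direction were not computed, so the asymmetry cannot be called particular to the members. SV2C stood outside the pattern with r = -0.06 (rho 0.04, adjusted p = 0.813 and 0.901).

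**Figure D4:**
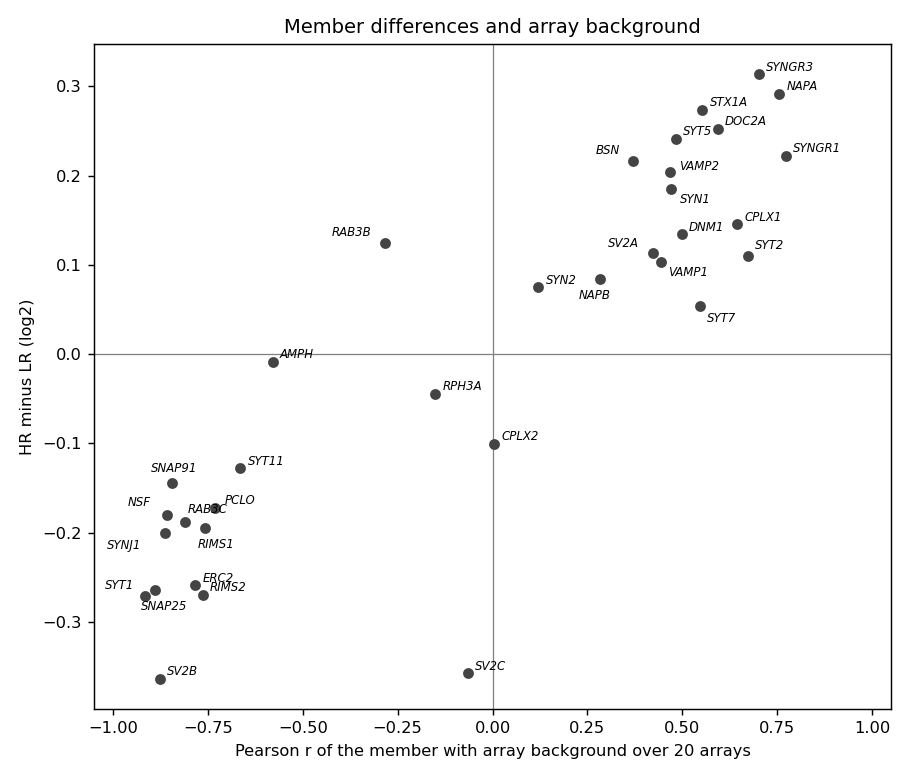
Each point is 1 of the 34 tested members, placed by its Pearson r with array background over 20 arrays (x axis) and its HR minus LR difference on the log2 scale (y axis). Of 18 members above 0 on the y axis 17 lie right of 0, and of 16 below 0, 15 lie left of it, with SV2C low on the y axis near r = -0.06.

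With the background mean as a covariate in the same fit, 2 members were higher and 1 was lower in HR at an unadjusted p under 0.05, against 1.96% and 2.02% of genes. The 3 were SYNGR3 (0.20, p = 0.026), STX1A (0.20, p = 0.044) and SV2C (-0.42, p = 0.028). Of the 5 members lower in HR, 4 came close to 0 and SV2C did not. SNAP25 was then -0.06 (p = 0.4), SYT1 -0.03 (p = 0.71), SV2B -0.08 (p = 0.42) and RIMS1 -0.06 (p = 0.42). Members that had been higher kept more of their size, between 0.10 for SYNGR1 and 0.20 for STX1A and SYNGR3. The background mean was itself higher in HR than in LR on average, so background and group cannot be fully told apart in this fit.

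Partners of the machinery were then compared across animals, over 12 pairs of members. The strongest relation was between SNAP25 and SYT1, with r = 0.949 and rho = 0.949 (permutation p = 1e-05 for both, the smallest possible, adjusted p = 6e-05 over the pairs). It was 0.941 within HR, 0.935 within LR and 0.909 without LR replicates 3 and 2, the animals farthest from the SNAP25 median. After the background mean was regressed out of both genes, r was 0.734. STX1A and VAMP2 followed one another at r = 0.789 and rho = 0.823 (permutation p = 8e-05 and 1e-05, adjusted p = 0.00024 and 6e-05). That pair was 0.636 within HR, 0.758 within LR and 0.604 without LR replicate 3 and HR replicate 6.

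SNAP25 did not follow its own SNARE partners in the same way. With STX1A it had r = -0.50 and rho = -0.408 (permutation p = 0.0252 and 0.0758, adjusted p = 0.0379 and 0.13), and r was -0.218 without LR replicates 3 and 2, on which the relation therefore rested. With VAMP2 it had r = -0.543 and rho = -0.471 (permutation p = 0.014 and 0.0373, adjusted p = 0.024 and 0.0745), and -0.26 without the same animals. Within groups these values were -0.132 and -0.334 in HR, and -0.38 and -0.444 in LR, for STX1A and VAMP2 in turn. Within LR without replicate 3 they were 0.138 and -0.103, and after the background mean was regressed out over all animals they were -0.0237 and -0.317. Over all animals, SNAP25 with SYT1 and STX1A with VAMP2 had positive signs.

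Among paralogs, RIMS1 and RIMS2 had r = 0.901 and rho = 0.72 (permutation p = 1e-05 and 0.00055, adjusted p = 6e-05 and 0.00183), with 0.97 within HR, 0.89 within LR, 0.436 within LR without replicate 3, and 0.666 without LR replicate 3 and HR replicate 6. SYN1 and SYN2 had r = 0.80 and rho = 0.711 (permutation p = 5e-05 and 0.00061, adjusted p = 0.0002 and 0.00183), with 0.349 within HR, 0.916 within LR and 0.768 without LR replicate 3 and HR replicate 6. The paralogs SYT1 and SYT2 ran opposite to one another, with r = -0.797 and rho = -0.573 (permutation p = 0.00026 and 0.00943, adjusted p = 0.000624 and 0.0226). This value was -0.132 within HR, -0.914 within LR and -0.41 without LR replicates 3 and 2. These 5 pairs, counting SNAP25 with SYT1 and STX1A with VAMP2, had an adjusted p under 0.05 for both measures. The same was not computed for pairs of other genes, so relations of this strength cannot be called particular to the machinery.

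In the remaining pairs the measures did not both pass. NAPA and NAPB had r = 0.589 and rho = 0.361 (permutation p = 0.00725 and 0.118, adjusted p = 0.0145 and 0.158). The sign differed between groups, with -0.499 within HR and 0.741 within LR, and r was 0.346 without LR replicate 3. SV2A and SV2B had r = -0.481 and rho = -0.26 (permutation p = 0.0319 and 0.267, adjusted p = 0.0425 and 0.32). The SV2A and SV2B value was -0.0717 without HR replicate 6 and LR replicate 3. CPLX1 and CPLX2 had r = 0.42 and rho = 0.383 (permutation p = 0.0648 and 0.0947, adjusted p = 0.0777 and 0.142). VAMP1 and VAMP2 had r = 0.30 and rho = 0.117 (permutation p = 0.198 and 0.624, adjusted p = 0.216 and 0.681). BSN and PCLO had r = -0.258 and rho = -0.0226 (permutation p = 0.271 and 0.927, also after adjustment), with 0.545 within HR and -0.426 within LR, and 0.0627 within LR without replicate 3. These differences between groups were not tested. Within HR and within LR, r was -0.429 and -0.361 for SV2A and SV2B, 0.621 and 0.758 for CPLX1 and CPLX2, and 0.665 and -0.00327 for VAMP1 and VAMP2.

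**Figure D5:**
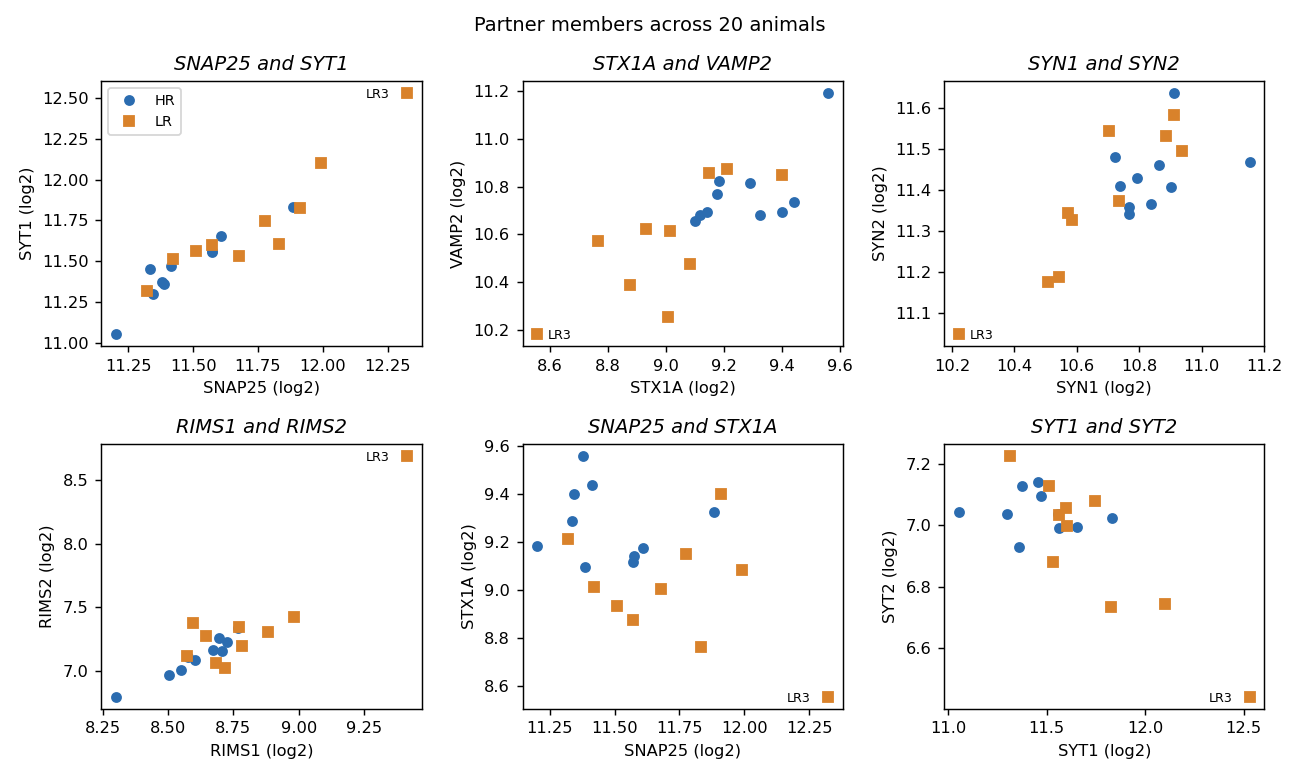
Log2 signal of 2 members of the machinery in each panel, 1 point per animal, circles for HR and squares for LR. SNAP25 and SYT1 lie along 1 line in both groups (r = 0.949), while SNAP25 and STX1A scatter apart from LR replicate 3, which sits at an end of every panel.

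Further genes of vesicle fusion, membrane, docking and recovery were taken from 6 lists. Of 99 tested, 19 were higher and 12 lower in HR at an unadjusted p under 0.05 (31.3%, near the 29.6% of all genes), and none had an adjusted p under 0.05. The vesicle proton pump, which acidifies vesicles so that they can load transmitter, had 4 higher and 2 lower of 14. ATP6V0D1, a subunit of its membrane part, averaged 11.05 in HR and 10.78 in LR and had a difference of 0.26 (p = 0.00211, adjusted p = 0.157), which was 0.19 (p = 0.019) with background as covariate. ATP6V0B and the accessory subunit ATP6AP1 differed by 0.28 and 0.25, and the cytosolic subunit ATP6V1C1 by -0.33.

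Other vesicle membrane genes had 4 higher and 0 lower of 15. These were the secretory carrier protein SCAMP3 (0.32), the ubiquitous synaptogyrin SYNGR2 (0.26), the vesicle chaperone DNAJC5 (0.22) and the vesicular glutamate transporter SLC17A7 (0.21). Other endocytosis genes had 4 higher and 5 lower of 20, and the clathrin assembly protein PICALM (-0.42) and the adaptor subunits AP2B1 (-0.33) and AP2S1 (0.20) differed in sign. Other RAB3 and active zone genes had 6 higher and 2 lower of 22, with RIMS3 at 0.23 and NRXN2, a presynaptic adhesion protein, at 0.19. At any p, 10 of these 22 were above 0 and 12 below, from -0.41 to 0.23, with a median of -0.02. Other SNARE and fusion genes had 0 higher and 3 lower of 20, namely VAMP7 (-0.41), the priming factor CADPS (-0.36) and VAMP4 (-0.21). Among 8 other synaptotagmins SYT3 alone was higher (0.19) and 0 were lower. With background as covariate, 2 of the 99 were higher and 1 was lower.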

How the data were processed

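Total RNA from the amygdala of 20 pigs was hybridised with 1 array per animal. Per their processing notes, the authors used GCOS 1.1.1 for scanner output. The log2 values they deposited had gone through the robust multichip average, which corrects background, normalizes by quantiles and summarises probes. Quantile normalization makes the arrays share 1 distribution, and array medians lay between 5.14 and 5.22. No detection filter had been applied to the deposited table. In its place, probe sets that were no control and had a mean over 20 arrays of at least 5.18 were tested. Gene symbols are those of the platform annotation, may be outdated, and carry no named build. No coordinates or sequences were used.

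Differences (HR minus LR) were fitted by lmFit and eBayes of limma 3.58.1 under R 4.3.3, without covariates and with Benjamini-Hochberg adjustment over 23860 probe sets. Replicate numbers follow accession order and pair no animals. Members and lists were chosen with earlier results of these data known. Members with an unadjusted p under 0.05 are given in full, the others by their difference, and of other lists at most 4 genes of smallest p are named. Correlations used 100000 permutations. Filter, normalization, variance model, array weights, covariates, choice of probe set and arrays left out were varied. The number of arrays limits the precision.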

Additional observations from a re-analysis of the deposited data

Results flagged for a closer look

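Within groups of 10 animals, 12 of 70 groups of member values (35 members in HR and in LR) had 1 animal farther from the rest than Dixon's 95% criterion allows. Chance gives about 1 in 20 groups, here 3.5, and the members are not independent of one another. The share over all genes was not computed, so this number cannot be read as a trait of the members. Of the 12, HR replicate 6 accounted for 5, HR replicate 1 for 1 and LR replicate 3 for 6.

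HR replicate 6 was high for VAMP2 (11.19, next highest HR animal 10.82), DOC2A (9.67, next 9.27), SV2A (11.62, next 11.31), SYN1 (11.15, next 10.91) and NAPA (9.70, next 9.43). HR replicate 1 was high for SYN2 (11.64, next 11.48). LR replicate 3 was low for NAPA (8.42, next lowest LR animal 8.95) and SYNGR1 (9.42, next 9.90). The same animal was high for RAB3C (10.40, next highest 9.84), RIMS1 (9.42, next 8.98), RIMS2 (8.69, next 7.42) and ERC2 (8.51, next 7.48). The cause of these deviations was not tested.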

How the results depend on the processing

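Under 31 other settings, the 14 members given in full kept their sign in all 433 comparisons, and none reached an adjusted p of 0.05 (lowest 0.101). These members had been picked by p, and 20 of the settings left out 1 animal each, so kept signs were likely from the start. No setting used a dimmer probe set alone. DOC2A fell to 0.03 over the mean of its probe sets, and its dimmer one gave -0.19. Counts moved more. Probe sets called (2) numbered 1 without a filter, 1 with a mean of at least 6, 5 with array weights, 1 with background as covariate, 0 with animal number as covariate, 1 without the 4 arrays of lowest correlation (HR replicates 4 and 6, LR replicates 2 and 3), and 0 to 7 when 1 animal was left out. Members at an unadjusted p under 0.05 (14) numbered 7 with array weights (5 higher in HR, 2 lower) and 3 with background (2 higher, 1 lower). They numbered 2 with animal number (1 higher, 1 lower) and 5 without those 4 arrays (4 higher, 1 lower). With background and with animal number, 8.82% and 5.88% of members met it, against 3.98% and 3.7% of all genes. Without both HR replicate 6 and LR replicate 3, a setting chosen after seeing the data, such members numbered 5, all higher in HR, with 0 lower. The share of all genes was not computed with array weights, without those 4 arrays or without both replicates. Leaving out 1 animal gave 9 to 17 members, 7 to 10 higher and 2 to 9 lower. Those lower in HR numbered 2 without HR replicate 10 or LR replicate 2, 3 without HR replicate 3, 4 or 6 or LR replicate 3 or 8, and 9 without HR replicate 1. The count of 9 in all was reached without LR replicate 2. Of the fits with 1 animal left out, the share of all genes was computed only without LR replicate 3 (20.5%, against 29.4% of members). Nearly all HR animal numbers (9 of 10) lay above every LR number, so that covariate and the group can hardly be told apart. No paired analysis was possible because replicate numbers follow accession order and pair no animals.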
